A study of Mus musculus with 9 samples.

Results

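Integrins and the leukocyte adhesion molecules that work with them were followed in RNA from peritoneal exudate cells of diabetic and non-diabetic mice. The 34 members, 14 integrin alpha subunits, 8 integrin beta subunits and 12 other adhesion genes, were chosen by gene name. A row of that name was present for 33 of the 34, among 41096 rows in all, and Itgax had none. All mice carried the APOE-/- genotype, a loss of apolipoprotein E that makes mice prone to atherosclerosis, and all ate a western diet for 8 weeks. The 5 control samples came from mice given citrate buffer (nondiabetic) on each of 5 days from 8 weeks of age. The 4 diabetic samples came from mice made diabetic from 8 weeks of age with streptozotocin (diabetes), which destroys insulin-making islet cells and was given at 40 mg/kg on each of 5 days. Every mouse then received 1.5 mL of 3% thioglycollate, an irritant that recruits leukocytes, and the cavity was washed out with 10 mL of saline 3 days later. The labels call the cells peritoneal macrophages and record no sorting step. They do not say whether a sample was 1 mouse or a pool, so p-values measure only the spread between these samples.

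Integrins are pairs of 1 alpha and 1 beta chain that hold leukocytes to other cells and to matrix. The beta 2 chain is restricted to leukocytes and joins alpha L (LFA-1, which binds ICAM-1), alpha M (Mac-1, the myeloid marker CD11b), alpha X (CD11c) or alpha D. Alpha 4 pairs with beta 1 to bind VCAM-1 or with beta 7 to bind MAdCAM-1, and alpha V pairs with several beta chains to bind vitronectin and other matrix proteins. Talin and kindlin-3, the products of Tln1 and Fermt3, grip the beta tails inside the cell and switch integrins into their binding state.

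Libraries held 14156421 to 16169060 reads in genes. General macrophage genes were present throughout, with a mean for Adgre1 (F4/80) of 284 ± 23.0 FPKM in the controls (SD, n = 5) against 246 ± 52.0 in the diabetic group (SD, n = 4). FPKM is the number of fragments scaled to gene model length and to library depth. Cells other than macrophages were present too: the 23 T cell markers summed to 133 to 191 FPKM in control and 244 to 761 in diabetic samples, and 19 of the 20 tested rose. Cd2, the tested marker that did not pass, averaged 93.8 FPKM in the controls, where the mean sum was 160.5. In the diabetic group it averaged 140.4 FPKM, where the mean sum was 548.2. The 18 B cell markers summed to 1277 to 2508 against 1836 to 3826 FPKM. Of the 17 tested, 4 were called higher and 0 lower, and 16 had a positive log2 fold change (median 0.62). In such bulk RNA, fewer cells of a type and less RNA per cell cannot be told apart.

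Of the 33 member rows, 21 reached 1 FPKM in at least 4 samples and were tested. Diabetic samples had lower Itgb5, which encodes the integrin beta 5 chain, and higher Pecam1, which encodes the adhesion receptor CD31. The other 19 tested members did not pass (limma on log2(FPKM + 1), Benjamini-Hochberg adjusted p below 0.05). That is 1 member higher, 1 lower and 9.52% of those tested, where 4.76% of all 11193 genes tested were called, 2.68% higher and 2.08% lower. The member share rests on 2 genes. Of the 21, 7 had a positive and 14 a negative log2 fold change. Their median was -0.095, and that of all genes tested was -0.013. The number of members called ran from 0 to 5 when 1 library was left out. It was 0 without diabetic 1, diabetic 2 or diabetic 4, 1 without control 2, control 3 or control 4, and 5 without diabetic 3. Calls over all genes moved too, from 533 to 230, 119 and 115 without diabetic 1, 2 and 4. They numbered 443, 198 and 352 without control 2, 3 and 4, and 1126 without diabetic 3. Members said below to pass without diabetic 3 stand beside that larger count.

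**Figure D1:**
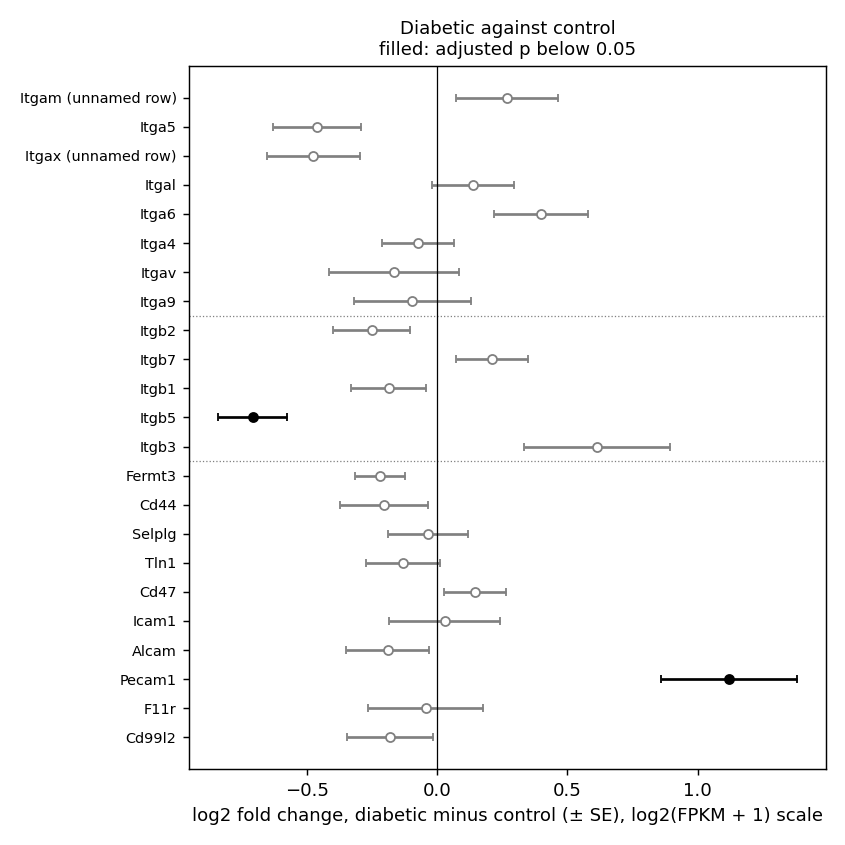
Log2 fold change of each tested member, diabetic minus control, on the log2(FPKM + 1) scale with its standard error, by class from integrin alpha at the top to other adhesion genes at the bottom. Filled points, Itgb5 at -0.71 and Pecam1 at 1.12, had an adjusted p below 0.05, and open points did not.

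No alpha chain passed. Of the 8 alpha rows tested, counting the unnamed rows described next, 0 passed with limma on FPKM and 0 with voom on recovered reads, and 2 (Itga5 and Itgax) had an unadjusted p below 0.05, as had 22.4% of all genes tested. Alpha M and alpha X, both partners of beta 2, come first here because a search by name misses them. The row named Itgam (chromosome 7, 137621388 to 137693833, plus strand) held 0.0583 to 0.246 FPKM, from 4 to 19 reads per sample. A row without a gene name, MGP_C57BL6NJ_G0033564, overlaps it on the same strand (137621345 to 137685831). The table's own description matches that row to UniProt's integrin alpha M, and it held 6288 to 13799 reads per sample. Alpha X likewise stood in an unnamed row, MGP_C57BL6NJ_G0033566 (chromosome 7, 137695220 to 137723576), whose last bases overlap the Itgad row. How the counting shared reads between overlapping rows is not given in the sources used here. With these rows added, 23 rows were tested and 2 called (8.70%). Positions are those of the deposited table, and the sources used here do not name a build that matches them.

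In the unnamed Itgam row, controls 1 to 5 measured 129.6, 120.3, 87.6, 181 and 138 FPKM, and diabetic 1 to 4 measured 157, 151, 192 and 124. The groups overlapped, with control 3 the lowest and diabetic 3 the highest of the 9 samples. It did not pass (log2 fold change 0.27, SE 0.19, adjusted p = 0.45). Controls in the unnamed Itgax row measured 15.1, 24.2, 20.1, 21.7 and 16.5 FPKM, and the diabetic samples 14.1, 9.43, 16.7 and 15.1. All 4 diabetic samples lay under the control mean, yet control 1 and control 5 lay within their range, and the gene did not pass (log2 fold change -0.47, SE 0.18, adjusted p = 0.15). Itgal, the alpha chain of LFA-1, averaged 13.6 ± 2.39 FPKM in the controls (SD, n = 5) against 15.1 ± 3.28 in the diabetic group (SD, n = 4), with a log2 fold change of 0.14 (SE 0.16, adjusted p = 0.65). Itgad, the remaining partner of beta 2 and no member of the list, was under the level needed for testing. It had 0.786 to 1.38 FPKM in control and 0.316 to 0.840 in diabetic samples. With no filter it did not pass (limma log2 fold change -0.45, SE 0.13, adjusted p = 0.13).

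Alpha M made up most of the alpha level available to beta 2. Of the summed FPKM of Itgal, Itgam, Itgax and Itgad, Itgam (its named and unnamed rows added) held 70.1% to 84.7% in control and 77.6% to 87.0% in diabetic samples. Itgax held 9.45% to 16.1% in control and 5.41% to 9.46% in diabetic samples. The ranges overlapped by a narrow margin, since diabetic 4 (9.46%) lay just above control 1 (9.45%). Itgal ran from 4.71% to 12.7% and from 6.03% to 12.5%. These shares are a description with no test, and they rest on gene model lengths between 4504 and 6569 bases.

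Itga5, the alpha chain of the fibronectin receptor, was the second most abundant alpha chain. Control 1 to 5 had 40.7, 29.0, 41.7, 35.6 and 36.9 FPKM, and diabetic 1 to 4 had 29.7, 21.1, 35.6 and 21.0. Diabetic 2 and diabetic 4 lay below every control sample, diabetic 1 just above control 2, and diabetic 3 among the controls. It did not pass (log2 fold change -0.46, SE 0.17, adjusted p = 0.14). Without diabetic 3 it did (log2 fold change -0.60, adjusted p = 0.034). Fibronectin itself, Fn1, chosen after its values were seen, had 527 ± 60.5 against 390.5 ± 67.4 FPKM and did not pass (log2 fold change -0.44, SE 0.14, adjusted p = 0.096; SD, n = 5 and n = 4).

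Itga6, the alpha chain of laminin receptors, had 14.2, 7.48, 12.0, 14.7 and 11.9 FPKM in control and 20.01, 15.6, 15.1 and 13.2 FPKM in diabetic samples. Diabetic 1, 2 and 3 lay above all controls and diabetic 4 within their range, and the gene did not pass (log2 fold change 0.40, SE 0.18, adjusted p = 0.22). Itga4, Itgav and Itga9 were lower in level. Their log2 fold changes were -0.073, -0.17 and -0.095 and their adjusted p-values 0.80, 0.74 and 0.84. In control 2 all of these, with 6.99, 2.96 and 1.47 FPKM, stood at the lowest level of the 9 samples. The FPKM of Itga4 is spread over a gene model of 13978 bases, and a short transcript in a long model reads low on this scale.

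The other alpha chains, Itga1, Itga2, Itga2b, Itga3, Itga7 and Itga8, lay under the level needed for testing. Itga3, the alpha chain of a laminin receptor of epithelia, had 0.262 to 0.552 FPKM in control and 0.629 to 1.08 in diabetic samples, from 22 to 97 reads per sample. The groups did not overlap, but how often that happens among genes under the filter was not counted. With no filter the log2 fold change was 0.34 (SE 0.10, adjusted p = 0.15). Itga2, part of a collagen receptor, had 1.34, 0.616, 1.22, 0.272 and 0.429 FPKM in control and 0.334, 0.0323, 0.150 and 0.184 in diabetic samples. Control 4 lay below diabetic 1, so the groups overlapped (no filter: log2 fold change -0.56, SE 0.19, adjusted p = 0.20). Itga2b, the alpha chain of the platelet fibrinogen receptor, had 0.888 ± 0.274 against 0.579 ± 0.224 FPKM (SD, n = 5 and n = 4; no filter: adjusted p = 0.43). Itga7 ranged from 0.0887 to 0.491 FPKM, Itga1 from 0.170 to 0.433, and Itga8 from 0 to 0.0580. The short gene Pelo lies inside the Itga1 row on the same strand.

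**Figure D2:**
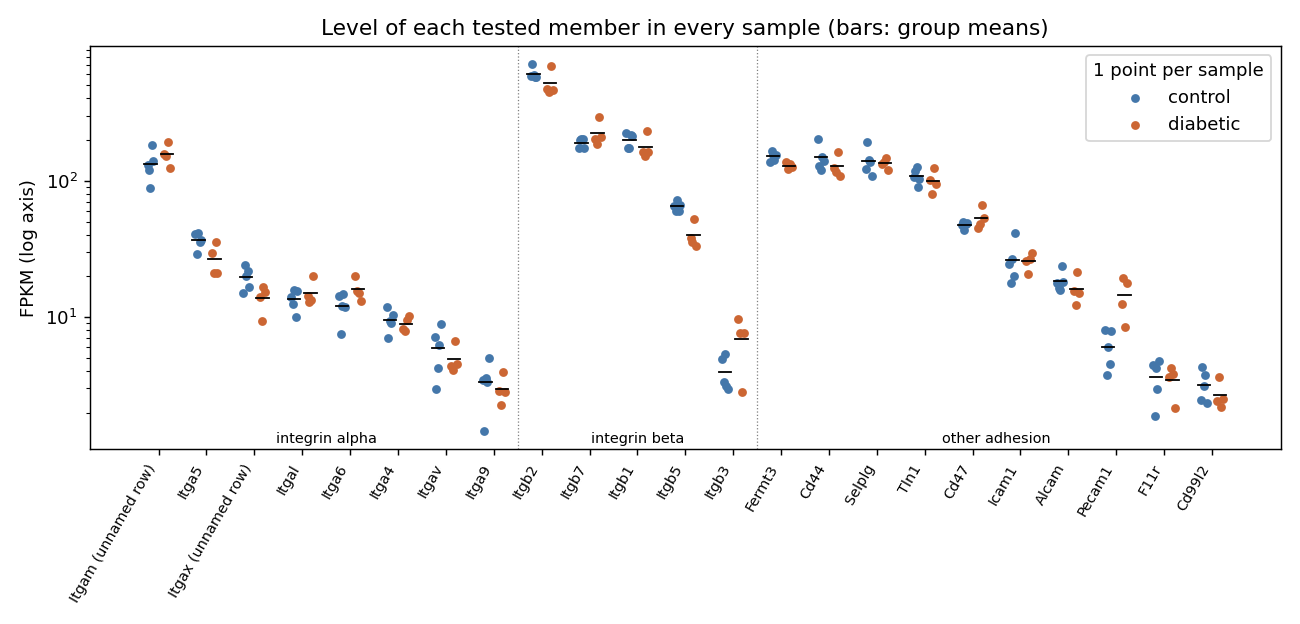
FPKM on a log axis for each tested member, 1 point per sample, with group means as bars, ordered by level within integrin alpha, integrin beta and other adhesion genes. Levels run from Itgb2, at 448 to 712 FPKM, down to genes of a few FPKM such as Cd99l2, and the control and diabetic points of most members overlap.

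Among the beta chains, Itgb5 fell. Controls 1 to 5 measured 65.2, 59.8, 72.2, 59.8 and 66.5 FPKM, and diabetic 1 to 4 measured 38.0, 35.5, 52.0 and 33.3 (chromosome 16, 32771600 to 32901745, plus strand). Every diabetic sample lay below every control sample, with diabetic 3 closest to them. The log2 fold change was -0.71 (SE 0.13, adjusted p = 0.018), from 64.7 ± 5.18 FPKM (SD, n = 5) to 39.7 ± 8.42 (SD, n = 4). The change kept its direction in all 9 fits that left out 1 library and passed in 6. Without diabetic 1, diabetic 2 or diabetic 4 the adjusted p was 0.051, 0.063 and 0.065, with log2 fold changes of -0.69, -0.66 and -0.63. Beta 5 pairs with alpha V in a receptor for vitronectin. Beside it, the 10 general macrophage markers found summed to 3034 to 3770 FPKM in control samples. In diabetic 1 to 4 they summed to 2825, 2905, 3886 and 2205 FPKM, and diabetic 3 was the highest in them as in Itgb5. The orders were not the same throughout, as diabetic 2 exceeded diabetic 1 in the markers but not in Itgb5. Control 2 had the highest control sum (3770 FPKM) but 59.8 FPKM of Itgb5. None of those markers was at 0, and 1 of the 10 tested (Mrc1) was called lower. Of the 10, 9 had a negative log2 fold change (median -0.23). Their part in the Itgb5 result was not tested.

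The sequence upstream of the start of Itgb5 is shown because it is the subunit that fell, and those of Itgb1 and Itgb7 because their ratio set the groups apart. Itgam and Itgax are shown as the neighbours whose reads stood in unnamed rows. Each is the 250 bases before the gene's start, from the RefSeq promoter table (build GRCm38.p6), read in the direction of the gene. Capitals mark GAGGAA, the letters of a core bound by the myeloid factor PU.1, and GGGCGG, the GC box bound by Sp1, on either strand (TTCCTC and CCGCCC on the other). The motifs do not overlap each other here.
Itgb5 (chr16:33829415-33829664, plus strand): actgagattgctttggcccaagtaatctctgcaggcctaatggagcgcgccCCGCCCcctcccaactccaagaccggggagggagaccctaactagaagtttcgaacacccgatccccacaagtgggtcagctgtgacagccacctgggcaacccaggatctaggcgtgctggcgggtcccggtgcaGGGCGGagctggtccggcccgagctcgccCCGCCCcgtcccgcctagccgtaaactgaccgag
Itgb1 (chr8:128685404-128685653, plus strand): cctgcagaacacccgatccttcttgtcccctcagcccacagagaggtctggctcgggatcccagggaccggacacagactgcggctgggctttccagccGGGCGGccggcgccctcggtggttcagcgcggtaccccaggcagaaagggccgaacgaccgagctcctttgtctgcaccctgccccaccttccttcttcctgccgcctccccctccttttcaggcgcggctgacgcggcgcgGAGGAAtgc
Itgb7 (chr15:102231936-102232185, minus strand): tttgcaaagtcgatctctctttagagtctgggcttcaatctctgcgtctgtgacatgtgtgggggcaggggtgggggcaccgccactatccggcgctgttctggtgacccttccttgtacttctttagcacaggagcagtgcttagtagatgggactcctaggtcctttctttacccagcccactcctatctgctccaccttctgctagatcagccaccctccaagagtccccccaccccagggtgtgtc
Itgam (chr7:128062390-128062639, plus strand): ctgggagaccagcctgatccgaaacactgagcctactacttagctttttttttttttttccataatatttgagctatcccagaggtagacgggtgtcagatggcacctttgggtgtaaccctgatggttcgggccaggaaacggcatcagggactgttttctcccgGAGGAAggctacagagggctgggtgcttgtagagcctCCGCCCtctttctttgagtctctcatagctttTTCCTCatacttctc
Itgax (chr7:128129300-128129549, plus strand): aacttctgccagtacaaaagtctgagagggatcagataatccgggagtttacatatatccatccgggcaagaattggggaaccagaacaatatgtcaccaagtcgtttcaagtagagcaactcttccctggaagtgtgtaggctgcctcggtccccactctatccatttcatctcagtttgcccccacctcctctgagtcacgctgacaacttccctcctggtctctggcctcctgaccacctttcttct
The Itgb5 window held 3 GC boxes and 0 matches to GAGGAA. Itgam held 2 matches to GAGGAA and 1 GC box, and Itgb1 had 1 of each. Itgb7 and Itgax had 0 of both. Over all 32851 windows in the table, 23.2% held GAGGAA and 32.7% held GGGCGG on at least 1 strand. Of the 27 windows of 24 members, 11 held the first and 13 the second. A match is a run of letters, not a measured binding site.

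Itgb3, the other well-known partner of alpha V and the beta chain of the platelet fibrinogen receptor, was listed in the opposite direction in most diabetic samples. Control 1 to 5 had 4.90, 3.37, 5.35, 3.14 and 3.00 FPKM, and diabetic 1 to 4 had 9.63, 7.63, 2.84 and 7.69. Diabetic 1, 2 and 4 lay above every control sample and diabetic 3 below all of them. The gene did not pass (log2 fold change 0.61, SE 0.28, adjusted p = 0.23). Without diabetic 3 it passed (log2 fold change 0.93, adjusted p = 0.011). Of 11 platelet markers 8 stayed below 1 FPKM in every sample, and Treml1, a receptor of platelet granules, fell by 1.07 on the log2 scale (SE 0.20, adjusted p = 0.019). The markers summed to 475.5 to 755.7 FPKM in control and 358 to 827 in diabetic samples, nearly all of it Pf4 (569 ± 105 and 544 ± 199 FPKM; SD, n = 5 and n = 4). Their part in the Itgb3 values was not tested.

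The most abundant member was Itgb2, the beta chain of all 4 leukocyte integrins above, at rank 125 of all rows by mean FPKM. It had 581, 712, 599, 571 and 577 FPKM in control 1 to 5 and 466, 448, 694 and 464 in diabetic 1 to 4. Diabetic 1, 2 and 4 lay below every control sample, while diabetic 3 lay above all but control 2. Over all samples the gene did not pass (log2 fold change -0.25, SE 0.15, adjusted p = 0.35). Without diabetic 3 it passed (log2 fold change -0.40, adjusted p = 0.047).

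Itgb7 and Itgb1 had similar levels. Itgb7, the beta chain of gut-homing alpha 4 beta 7, had 174, 199, 200.2, 202 and 174 FPKM in control and 202, 187, 293 and 209 in diabetic samples, and did not pass (log2 fold change 0.21, SE 0.14, adjusted p = 0.40). Itgb1, the partner of alpha 4, alpha 5, alpha 6 and others, had 222, 174, 174, 214 and 213 FPKM in control and 163, 152, 230.5 and 161 in diabetic samples. It did not pass either (log2 fold change -0.19, SE 0.14, adjusted p = 0.48). In both genes diabetic 3 was the highest of the 9 samples.

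Set against each other within a sample, these 2 beta chains separated the groups. The ratio of Itgb7 to Itgb1 FPKM was 0.783, 1.15, 1.15, 0.944 and 0.815 in control 1 to 5 and 1.24, 1.23, 1.27 and 1.29 in diabetic 1 to 4. All diabetic samples, diabetic 3 among them, lay above all controls. As shares of the sum of both chains, Itgb7 held 48.8% ± 4.53 among controls (SD, n = 5) against 55.7% ± 0.584 in the diabetic group (SD, n = 4). The ratio was not tested, neither gene passed by itself, and it does not show which of them moved. How many other pairs of genes would separate the groups in this way was not counted. Itgb7 FPKM was 14.7 to 30.9 times that of Itga4, and its other partner Itgae had 0.313 to 0.780 FPKM.

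The beta partners of alpha V were set against each other in the same way, again as a description with no test. Of the summed FPKM of Itgb1, Itgb3, Itgb5, Itgb6 and Itgb8, Itgb5 held 21.5% to 28.7% in control and 16.5% to 18.2% in diabetic samples, with no overlap. Diabetic 3, at 18.2%, sat with the other diabetic samples on this measure, and it also had the highest Itgb1 FPKM of the 9 samples. Itgb5 FPKM had already separated the groups, so its share is no separate evidence. Itgb1, most of the sum, held 69.2% to 77.29% in control and 77.31% to 80.8% in diabetic samples, apart by a very narrow margin. Shares of the same sum are tied to each other, so the Itgb1 share is no separate evidence either. Itgb1 FPKM itself averaged 199.6 in control and 176.7 in diabetic samples and did not pass. Itgb3 held 1.06% to 2.12% in control samples, and 4.58%, 3.90%, 0.996% and 3.80% in diabetic 1 to 4. Itgb4, Itgb6 and Itgb8 were under the filter. Itgb4 had 0.0708 to 0.218 FPKM and Itgb8 0.0116 to 0.138. Itgb6 had 1 read in all 9 libraries together.

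**Figure D3:**
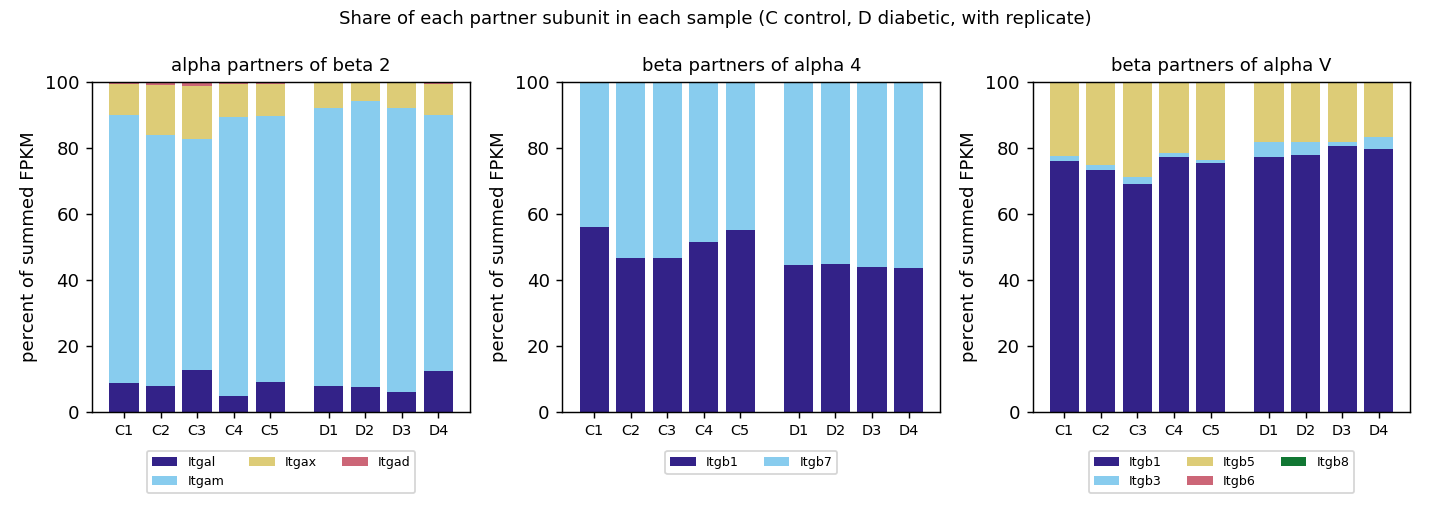
Percent of summed FPKM held by each partner subunit in every sample, control (C) and diabetic (D) with replicate number, for the alpha partners of beta 2, the beta partners of alpha 4 and the beta partners of alpha V. Itgb7 takes 43.9% to 53.5% of the alpha 4 partners in control and 55.1% to 56.4% in diabetic samples, and Itgb5 a smaller part of the alpha V partners in diabetic samples.

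Pecam1, the member that rose, encodes a receptor that binds itself across cell contacts and is known from endothelium, platelets, myeloid cells and naive T cells. It had 8.06, 3.77, 6.02, 4.53 and 7.89 FPKM in control 1 to 5 and 12.5, 19.4, 8.44 and 17.7 in diabetic 1 to 4 (chromosome 11, 113357138 to 113481843, minus strand). All 4 diabetic samples lay above all 5 control samples, diabetic 3 by a narrow margin. The log2 fold change was 1.12 (SE 0.26, adjusted p = 0.038). It passed without control 1, control 5 or diabetic 3. It did not pass without control 2 (adjusted p = 0.065), control 3 (0.088), control 4 (0.076), diabetic 1 (0.080), diabetic 2 (0.12) or diabetic 4 (0.12), with log2 fold changes of 0.97 to 1.17 in those fits. Plain totals in place of the deposited scaling ended the call as well (log2 fold change 1.15, adjusted p = 0.052), as did testing with no filter (1.12, adjusted p = 0.087).

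Markers of other cells are given beside Pecam1. The T cell marker sum was 483, 761, 244 and 705 FPKM in diabetic 1 to 4, which is the same order of samples as in Pecam1, and 0 of the 23 markers were at 0 in all samples. The 18 B cell markers summed to 3085, 3636, 1836 and 3826 FPKM in the same samples. The 12 large peritoneal macrophage markers summed to 1428 to 6884 FPKM in control and 9834, 7508, 4705 and 4141 FPKM in diabetic 1 to 4. Of the 11 tested, 1 was called higher and 0 lower, and all 11 had a positive log2 fold change (median 0.53). The part of any of these cells in the Pecam1 result was not tested. The 10 endothelial markers summed to 9.37 to 21.6 FPKM in control and 6.51 to 16.0 in diabetic samples. Of these, Emcn, Robo4 and Cldn5 were listed at 0 in every sample, Cdh5 had 0.397 ± 0.127 against 0.488 ± 0.340 FPKM (SD, n = 5 and n = 4), and Eng, the only one tested, did not pass (log2 fold change -0.48, SE 0.27, adjusted p = 0.33).

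**Figure D4:**
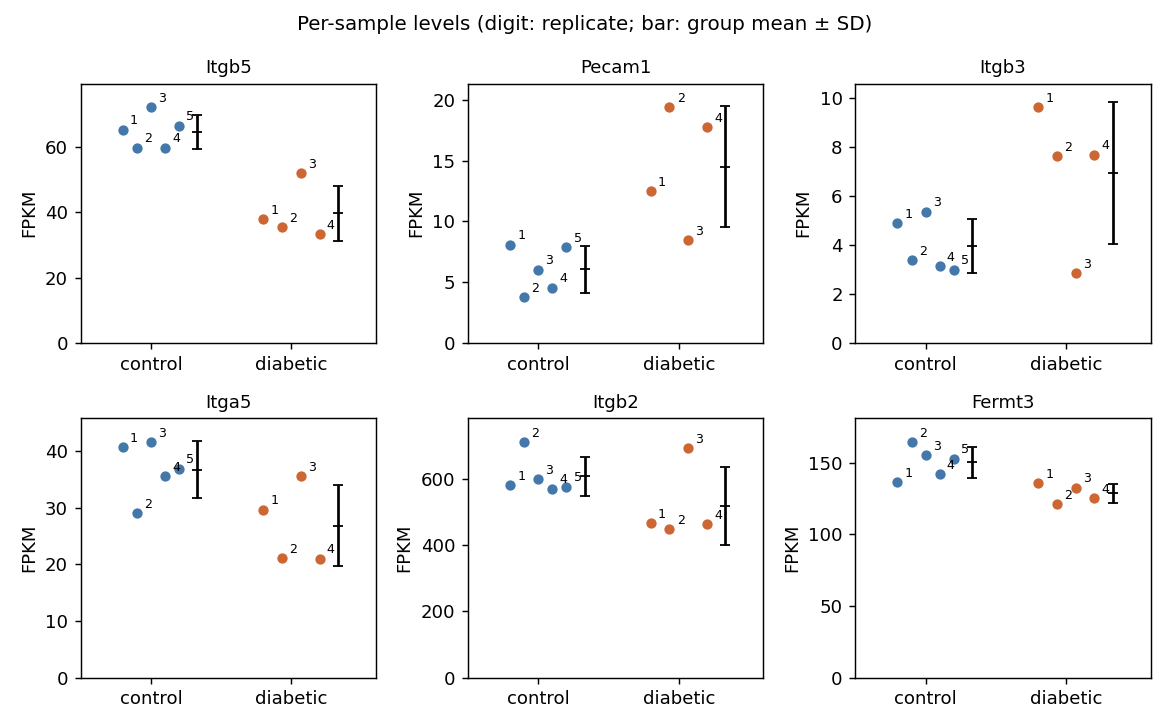
FPKM of Itgb5, Pecam1, Itgb3, Itga5, Itgb2 and Fermt3 in each control and diabetic sample, labelled by replicate number, with the group mean and SD beside the points. Itgb5 and Fermt3 lie lower and Pecam1 higher in every diabetic sample, and diabetic 3 stands apart from the other diabetic samples in Itgb3 and Itgb2.

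The intracellular activators were abundant. Fermt3, which encodes kindlin-3, had 137, 165, 155, 142 and 153 FPKM in control 1 to 5 and 136, 121, 133 and 125 in diabetic 1 to 4. Every diabetic sample lay below every control sample, though control 1 and diabetic 1 were within 1 FPKM of each other. It did not pass (log2 fold change -0.22, SE 0.096, adjusted p = 0.21). Groups that did not overlap were seen in 3 of the 21 tested members (Itgb5, Fermt3 and Pecam1), 14.3%, and in 9.42% of all genes tested. By direction that is 1 member higher and 2 lower, against 4.82% and 4.60% of all genes. Tln1, talin-1, had 109 ± 13.9 against 99.6 ± 18.1 FPKM (SD, n = 5 and n = 4; log2 fold change -0.13, SE 0.14, adjusted p = 0.63). The ends of the Fermt3 and Tln1 rows overlap genes on the other strand, Trpt1 (0.598 to 2.64 FPKM) and Creb3 (27.8 to 47.2 FPKM), and whether the counting used strand is not given.

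Cd44, the hyaluronan receptor, had 203, 128, 121, 149 and 139 FPKM in control and 125, 116, 161 and 108 in diabetic samples. Control 1 was the highest, diabetic 4 the lowest, and the groups overlapped (log2 fold change -0.20, SE 0.17, adjusted p = 0.51). Selplg, PSGL-1, the selectin ligand that starts leukocyte rolling, had 139 ± 31.3 against 134 ± 11.1 FPKM (SD, n = 5 and n = 4), with control 2 the highest at 190.3. Its log2 fold change was -0.034 (SE 0.15, adjusted p = 0.92). Cd47, the "don't eat me" ligand of SIRP alpha, had 43.4 to 49.9 FPKM in control and 44.9, 48.2, 66.2 and 53.5 in diabetic samples (log2 fold change 0.14, SE 0.12, adjusted p = 0.51). Diabetic 3 and diabetic 4 lay above the control range.

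Icam1, the ligand of beta 2 integrins, ranged from 17.6 to 41.3 FPKM in control and 20.6 to 29.4 in diabetic samples (log2 fold change 0.029, SE 0.21, adjusted p = 0.95). Alcam, which binds CD6 on lymphocytes, had log2 fold change -0.19 (SE 0.16, adjusted p = 0.52). The junctional protein gene F11r (JAM-A), at 1.88 to 4.75 FPKM, and Cd99l2, at 2.20 to 4.30 FPKM, had log2 fold changes of -0.045 and -0.18 (adjusted p = 0.92 and 0.56). Vcam1, the ligand of alpha 4 beta 1, had 0.188 to 0.466 FPKM and Jam3 had 0.122 to 0.507 FPKM, both under the filter.

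**Figure D5:**
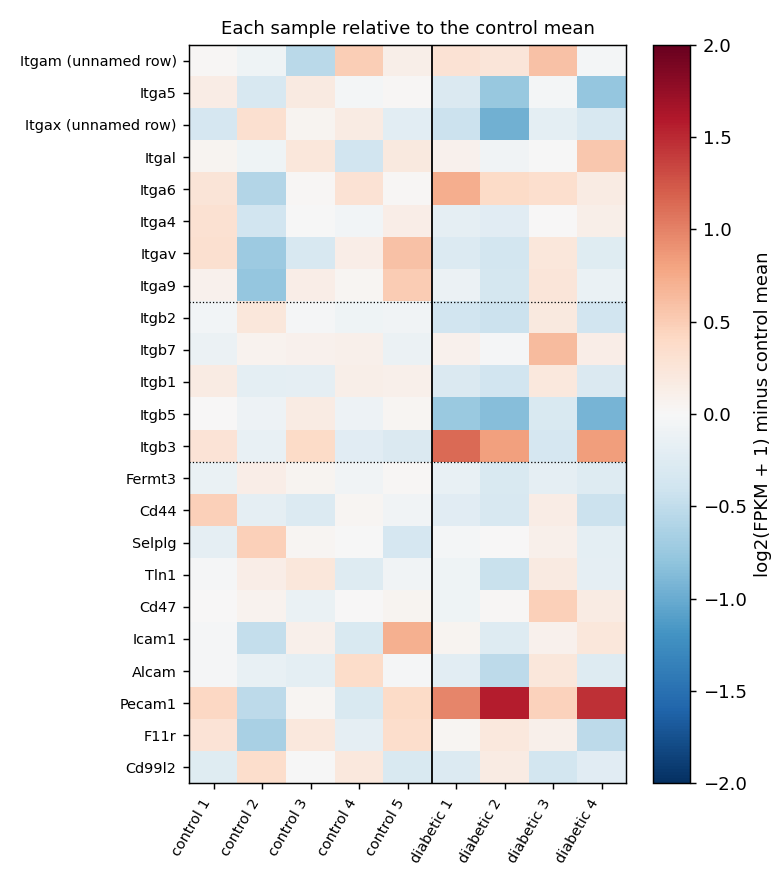
Each tested member in each sample as log2(FPKM + 1) minus its control mean, control samples left of the line and diabetic samples right of it, red above and blue below. Diabetic 3 differs from the other diabetic samples in Itgb2, Itgb3 and Itgb7. Itgb5 (below) and Pecam1 (above) stay on the same side of the control mean in all 4. So do uncalled rows, among them Fermt3, Itgax and Itga5 (below) and Itga6 (above).

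Across the 23 tested rows diabetic 3 was the highest of the 4 diabetic samples in 14 and the lowest in 3. Diabetic 2 was the lowest in 12. Diabetic 3 also had the lowest T cell marker sum and the highest general macrophage marker sum of the diabetic group, and the part of either in these orders was not tested.

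Other genes of the pathway were counted in the same fit. Of 30 tested genes for integrin activation and signalling 1 rose and 1 fell, with a median log2 fold change of -0.067, and 13 had an unadjusted p below 0.05 with limma. Over all genes tested that share was 22.4%, which is also the background for the counts at an unadjusted p in the lists that follow. For the calls in these lists the background is 2.68% of all genes tested called higher and 2.08% lower. Skap1, the T cell adaptor that links the T cell receptor to integrin activation, rose from 0.495 ± 0.0861 FPKM (SD, n = 5) to 3.06 ± 1.49 (SD, n = 4), with a log2 fold change of 1.36 (SE 0.22, adjusted p = 0.011). T cell markers rose in the same comparison, and their part in Skap1 was not tested. Pxn, which encodes the focal adhesion scaffold paxillin, fell from 32.5 ± 2.82 to 23.6 ± 3.31 FPKM (log2 fold change -0.45, SE 0.11, adjusted p = 0.047; SD, n = 5 and n = 4). Vcl (vinculin, log2 fold change -0.67, adjusted p = 0.059) and Flna (filamin A, -0.42, adjusted p = 0.079), chosen after their values were seen, did not pass.

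Of 20 tested adhesion receptors outside the member list 2 rose and 0 fell (6 at an unadjusted p below 0.05 with limma), with a median log2 fold change of 0.22. Cd96, a receptor of T and NK cells for nectin-like ligands, rose from 0.831 ± 0.295 to 4.56 ± 1.40 FPKM (log2 fold change 1.58, SE 0.19, adjusted p = 0.0033; SD, n = 5 and n = 4). Cd96 is also made by T cells, whose markers rose in these samples, and their part was not tested.

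Among 11 tested matrix and plasma ligands 0 rose and 1 fell (4 at an unadjusted p below 0.05 with limma), with a median log2 fold change of -0.31. That was Spp1, osteopontin, a ligand of alpha V and alpha 4 integrins, which fell from 538 ± 129 to 157 ± 75.5 FPKM (SD, n = 5 and n = 4), a log2 fold change of -1.86 (SE 0.29, adjusted p = 0.011). Of 9 tested tetraspanins, membrane partners of integrins, Cd9 fell from 150.4 ± 18.6 to 104.5 ± 9.48 FPKM (log2 fold change -0.52, SE 0.12, adjusted p = 0.031; SD, n = 5 and n = 4), 0 rose (4 at an unadjusted p below 0.05 with limma), and the median was -0.086. These lists were short, and no list was tested as a set.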

How the data were processed

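Messenger RNA libraries of 5 control and 4 diabetic samples were made with a SMARTER kit, per the labels' protocols. The authors deposited FPKM values for 41096 genes of the C57BL/6NJ gene set with gene lengths, per the file headers. GRCm38 and mm10 are named in the submitters' processing notes. Of 29735 gene names shared with GENCODE's GRCm38 annotation, 0 had the same start, so positions are printed as deposited. The aligner, the counter and its handling of strand: not given in the sources used here. FPKM times length was a whole multiple of 1 read's worth for 100% of values above 0 (within 0.05), and read numbers come from this. The implied divisors are 0.911 to 1.08 times the totals, so the values were already scaled between samples.

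Genes reaching 1 FPKM in 4 or more samples were fitted with limma 3.58.1 (R 4.3.3) on log2(FPKM + 1), group as the only factor, trend and robust moderation, two-sided, adjusted over all genes by Benjamini-Hochberg with a threshold of 0.05. This scale understates changes of low genes. The fit was tested on simulated data. Unnamed rows took a name only from a single mouse UniProt match in the table, and only where no named row bore it. The unnamed alpha M row was picked out separately by its UniProt entry, since a row named Itgam existed. Members, gene lists, tests and alternatives (pseudocount, filter, scaling, voom, array weights, replicate block, libraries left out) were chosen with earlier results of these data known. Named genes are all members, and from each pathway list up to 4 passing genes by p. Named after their values were seen were Vcl, Flna, Fn1, Itgad, Itgae, Adgre1, Cd2, Pf4, Cdh5, Emcn, Robo4, Cldn5 and the overlapping genes Pelo, Trpt1 and Creb3. Read numbers cannot separate PCR copies from molecules. A gene counted among the adhesion receptors is not reported here by name.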

Additional observations from a re-analysis of the deposited data

Results flagged for a closer look

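A sample far from the rest of its group was found in 4 of 46 groups of member values, where chance gives about 1 in 20. Itgb2 in diabetic 3 had 694 FPKM against 448 to 466 in the other diabetic samples. Itgb2 in control 2 had 712 FPKM against 571 to 599 in the other controls. Itgb1 in diabetic 3 had 230.5 FPKM against 152 to 163. Alcam in control 4 had 23.8 FPKM against 15.8 to 17.9.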

How the results depend on the processing

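All genes called numbered 533 and members called 2. Over the 9 fits that left out 1 library they ranged from 115 to 1126 genes and from 0 to 5 members. Members called were 1 with no filter (183 genes), 1 with plain totals, 4 with array weights (1304 genes: Itga5, Itgb3, Itgb5, Pecam1) and 0 with the replicate block (73 genes). The block used 8 of the samples. Deviations of same-numbered samples had correlations of 0.023, 0.156, -0.255 and -0.180. These lay inside the range of differently numbered samples, -0.303 to 0.328. The labels state no pairing, and so few values cannot exclude a weak one. Counts stayed within 1.5 times the reported ones with a pseudocount of 0.1, quantile normalization and voom. The 2 unnamed rows, added after seeing the data, left members called at 2. The cause of these moves was not tested. Itgb5 kept its direction in all 16 alternatives and passed in 12, and Pecam1 passed in 7. Of the 23 tested rows 18 kept their direction in every alternative run. The 5 that did not, all uncalled, had log2 fold changes near 0. With 1 library left out these ranged from -0.17 to 0.0022 for Itga4, -0.29 to 0.033 for Itga9, -0.090 to 0.21 for Icam1, -0.12 to 0.085 for Selplg and -0.21 to 0.11 for F11r. Itga9 (0.033) and F11r (0.042) also turned with the replicate block, which leaves out control 5, and had the same values without control 5 and no block. Array weights turned Icam1 (-0.072) and Selplg (0.045), which plain totals (0.0040) and quantile normalization (0.020) also turned. Itgb6, with 1 read in all libraries, gave too few reads for a comparison.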
